A study of Mus musculus with 34 samples.

Results

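The interferon inducible GTPases are enzymes that cells make in quantity after interferon, and 9 of their genes were followed here through mouse bone marrow-derived macrophages: Gbp2, Gbp3, Gbp5 and Gbp7 of the guanylate-binding protein (GBP) family and Irgm1, Irgm2, Igtp, Iigp1 and Ifi47 of the immunity-related GTPase (IRG) family. The genes were taken by symbol from the count tables, where they were 9 of 52550 genes in the main set of libraries and 9 of 25498 in a further set that the labels name batch 1. All 9 had enough counts to be tested in both sets, among 19444 genes tested for the main libraries and 15481 for batch 1. The study asked how mutations found in clonal hematopoiesis, the outgrowth of mutated blood stem cells with age, alter the macrophage transcriptome with and without low-density lipoprotein (LDL). Macrophages were grown from whole marrow of mice aged 10 to 14 weeks for 6 days with 10 ng/ml M-CSF, replated, rested for 24 h and given 200 mg/dL LDL or vehicle for 24 h. The genotypes were Dnmt3aKO (Dnmt3a fl/fl;Vav-Cre), Tet2KO (Tet2 fl/fl;Vav-Cre), Jak2VF (Jak2V617F/WT;Vav-Cre) and WT (Vav-Cre), so the WT controls carry the same Cre, which the Vav promoter drives in blood-forming cells. The main set held 3 libraries for each genotype and treatment, 24 in all. Batch 1 held 2 Tet2KO LDL, 3 Tet2KO vehicle, 2 WT LDL and 3 WT vehicle libraries. The labels do not say whether libraries of a group came from separate mice, so p-values measure the spread between these libraries, which may be technical.

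GBPs are large GTPases that gather on the vacuoles of intracellular bacteria and parasites, help to break them open and expose microbial products to inflammasomes. IRGs are smaller GTPases that fall into effectors, such as Iigp1 and Ifi47, which load on and rupture pathogen vacuoles, and regulators, such as Irgm1, Irgm2 and Igtp, which sit on the membranes of the host cell and hold the effectors inactive there. Genes of both families are switched on most strongly by interferon gamma, through gamma-activated sequences (GAS) and through IRF1, and also by type I interferon, through interferon-stimulated response elements (ISRE).

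Since the members moved together between libraries, the stretches of their promoters around the ISRE matches are shown, read from the RefSeq promoter table (GRCm38.p6), which covers 250 bases before to 50 bases after each start. Each line runs 5′ to 3′ on the strand of the gene and holds 80 bases, and the capitals mark ISRE and GAS matches on either strand. The GAS matches of Gbp5 lie outside the stretch shown. Those of Gbp7 begin at -106 and -87, before its stretch begins at -82. The end of the match at -87 lies within the stretch and is left in lower case.
Gbp2, chr3:142620575-142620654 (+): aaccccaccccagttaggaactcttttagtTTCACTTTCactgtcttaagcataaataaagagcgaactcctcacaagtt
Gbp3, chr3:142559970-142560049 (+): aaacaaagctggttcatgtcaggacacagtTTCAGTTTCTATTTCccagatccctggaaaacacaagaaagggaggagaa
Gbp5, chr3:142496740-142496819 (+): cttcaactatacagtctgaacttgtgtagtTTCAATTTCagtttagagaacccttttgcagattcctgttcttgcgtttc
Gbp7, chr3:142530254-142530333 (+): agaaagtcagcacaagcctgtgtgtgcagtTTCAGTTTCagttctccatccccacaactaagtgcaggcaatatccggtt
Irgm1, chr11:48871401-48871480 (-): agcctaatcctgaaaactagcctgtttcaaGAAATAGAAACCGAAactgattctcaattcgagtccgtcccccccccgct
Irgm2, chr11:58214883-58214962 (+): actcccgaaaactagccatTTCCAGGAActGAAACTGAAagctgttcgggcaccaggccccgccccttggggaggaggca
Igtp, chr11:58199492-58199571 (+): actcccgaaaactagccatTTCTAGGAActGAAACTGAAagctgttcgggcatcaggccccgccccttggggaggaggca
The ISRE was searched as GAAANNGAA, the GAS as TTCNNNGAA and a shorter IRF core as AANNGAAA, on both strands. The IRF core and the ISRE share most of their letters and overlapped in every member with an ISRE, so these matches are not independent. A promoter window was listed for 8 of the 9 members, all but Iigp1, whose promoter was not used here. An ISRE lay in the window of 7 members, all but Ifi47, against 8.56% of the 32851 windows in the table. A GAS lay in 4 members (Gbp5, Gbp7, Irgm2 and Igtp), against 8.30% of all windows, and an IRF core in 8, against 23.9%. Most ISRE matches were close to the start, at -58 in Gbp2, -44 and -38 in Gbp3, -52 in Gbp7, -30 and -24 in Irgm1, -64 in Irgm2 and -34 in Igtp, counted to the first base of the match, and the ISRE of Gbp5 was at -164. The windows of Igtp and Irgm2 were identical in 78 of the 80 bases shown and carried a GAS that began 11 bases before the ISRE. That arrangement, looked for after the sequences had been seen, occurred in 8 windows of the table, 0.0244%. A match describes these letters and does not show that a factor binds there.

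**Figure D1:**
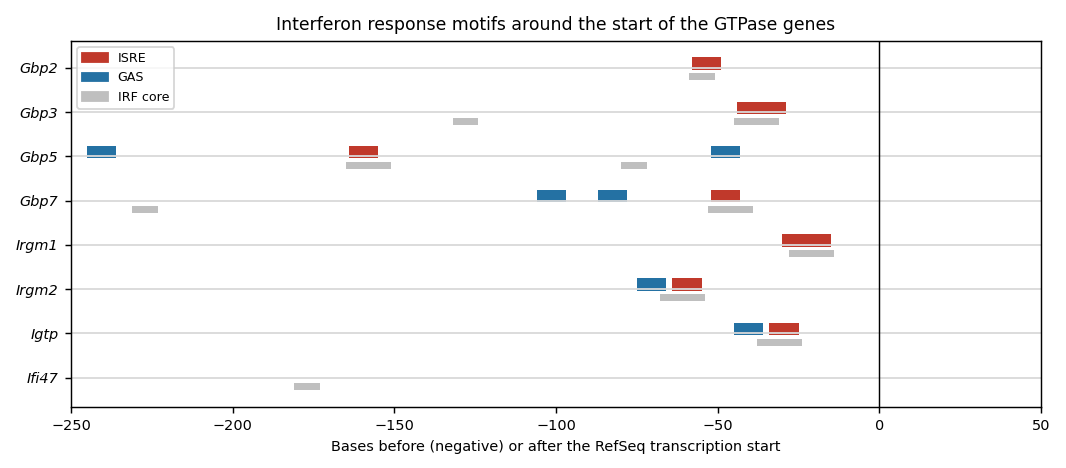
Matches to the ISRE (red), GAS (blue) and IRF core (grey) in the RefSeq promoter window of 8 GTPase genes, by distance in bases from the transcription start (0). An ISRE lies in 7 of the 8 windows, and Ifi47 has only an IRF core.

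The 4 GBP genes lie side by side on chromosome 3, 4 of the IRG genes lie on chromosome 11, and Iigp1 lies on chromosome 18. In the GENCODE annotation of GRCm38, Gbp5 spans chr3:142493978-142522344, Gbp7 chr3:142530342-142550149, Gbp3 chr3:142560026-142573209 and Gbp2 chr3:142620602-142638008, each on the plus strand. Irgm1 spans chr11:48861968-48871683 on the minus strand, and Ifi47 (chr11:49076587-49096974), Igtp (chr11:58199556-58207591) and Irgm2 (chr11:58199618-58222782) are on the plus strand. Iigp1 spans chr18:60376027-60392634 on the plus strand. All 9 are annotated as protein coding. Igtp and Irgm2 start close together in GENCODE, while the RefSeq start of Irgm2 lies further downstream, and they share 162 exonic bases on the same strand, Gbp7 shares 637 with the processed pseudogene Gm43802, and Ifi47 shares 111 with Olfr56 on the same strand and 106 with Gm12188 on the opposite strand, so reads in these stretches may have been split between the genes or left out.

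Main set libraries held 24105237 to 43904761 counts and batch 1 libraries 15171143 to 44449473, and levels are CPM, counts per 1000000 of the scaled library total. Dnmt3a was at 27.6 to 36.6 CPM in Dnmt3aKO libraries, below all WT libraries of the main set at 39.4 to 71.2 CPM. Gene totals did not check the other labels, since Tet2 was at 19.3 to 40.4 CPM in Tet2KO libraries and at 15 to 32.2 CPM in WT libraries, counts of a floxed gene include exons outside the deletion, and the Jak2 allele is a point mutation. The 8 macrophage markers summed to 19100 to 33400 CPM in the main set. Stromal markers such as Col1a1 summed to 7650 to 16200 CPM in the main set, against 408 to 3350 CPM in batch 1. In 2 libraries of the main set, WT LDL library 3 and Tet2KO LDL library 3, the astrocyte marker Gfap was at 2.72 and 4.26 CPM. The 8 brain markers, Gfap among them, did not set these libraries apart, with sums of 106 and 122 CPM. Library 2 of the same groups had 103 and 116 CPM.

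The library WT LDL 1 stood apart for these genes. Each of the 9 members was higher there than in the other WT LDL libraries, by 1.72-fold for Irgm2 to 3.94-fold for Gbp3 over the mean of those libraries, and 7 of the 9 were at least 2-fold higher, as were 1.3% of the 14130 genes with a WT LDL mean of at least 1 CPM. Irf7, the type I interferon regulator, was at 158 CPM in that library, against 22.8 and 26.9 CPM in libraries 2 and 3. The sum of 20 type I interferon-stimulated genes was 1210 CPM there, against 351 and 375 CPM. Counts of interferon gamma itself (Ifng) were 0 in that library, and 11 T and NK cell markers, Cd4 left out, summed to 15.5 CPM, against 9.34 and 10.7 CPM. Because all groups share the estimate of spread, that library bears on each main set test, and results are given with and without it. Since it was the highest WT LDL library for all 9 members, leaving it out had to lower each WT LDL mean. The results without it therefore describe the other libraries and are no independent support.

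Per length, Ifi47 and Irgm1 had the highest mean levels of the members and Gbp5 the lowest. In WT macrophages with vehicle, the level per kilobase of exon was 13.0 ± 2.16 CPM for Ifi47, 12.6 ± 1.41 for Irgm1, 9.49 ± 1.21 for Irgm2, 8.5 ± 1.2 for Gbp2 and 8.24 ± 1.58 for Igtp (SD, n = 3 each). The remaining members were at 3.37 ± 0.586 CPM per kilobase for Gbp3, 2.04 ± 0.384 for Gbp7, 1.41 ± 0.497 for Iigp1 and 0.729 ± 0.224 for Gbp5 (SD, n = 3 each). Ifi47 and Irgm1 overlapped within 1 SD, as did Irgm2, Gbp2 and Igtp, Gbp7 and Iigp1, and Iigp1 and Gbp5.

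Across the 8 groups of the main set, the mean CPM was lowest in Jak2VF LDL macrophages for all 9 members. Vehicle-treated Tet2KO macrophages had the highest mean for Gbp3, Gbp5, Gbp7, Irgm2, Iigp1 and Ifi47, vehicle-treated WT macrophages for Irgm1, and WT LDL macrophages for Gbp2 and Igtp through library 1. Iigp1, whose group means spanned the largest ratio, averaged 10.8 CPM in Tet2KO vehicle, 8.23 in WT vehicle, 5.25 in WT LDL, 4.09 in Jak2VF vehicle, 3.43 in Tet2KO LDL, 3.32 in Dnmt3aKO vehicle, 2.50 in Dnmt3aKO LDL and 2.29 in Jak2VF LDL libraries. Most neighbours in such an order did not separate: libraries of neighbouring groups overlapped in all but 8 of the 63 neighbouring pairs over the 9 members.

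**Figure D2:**
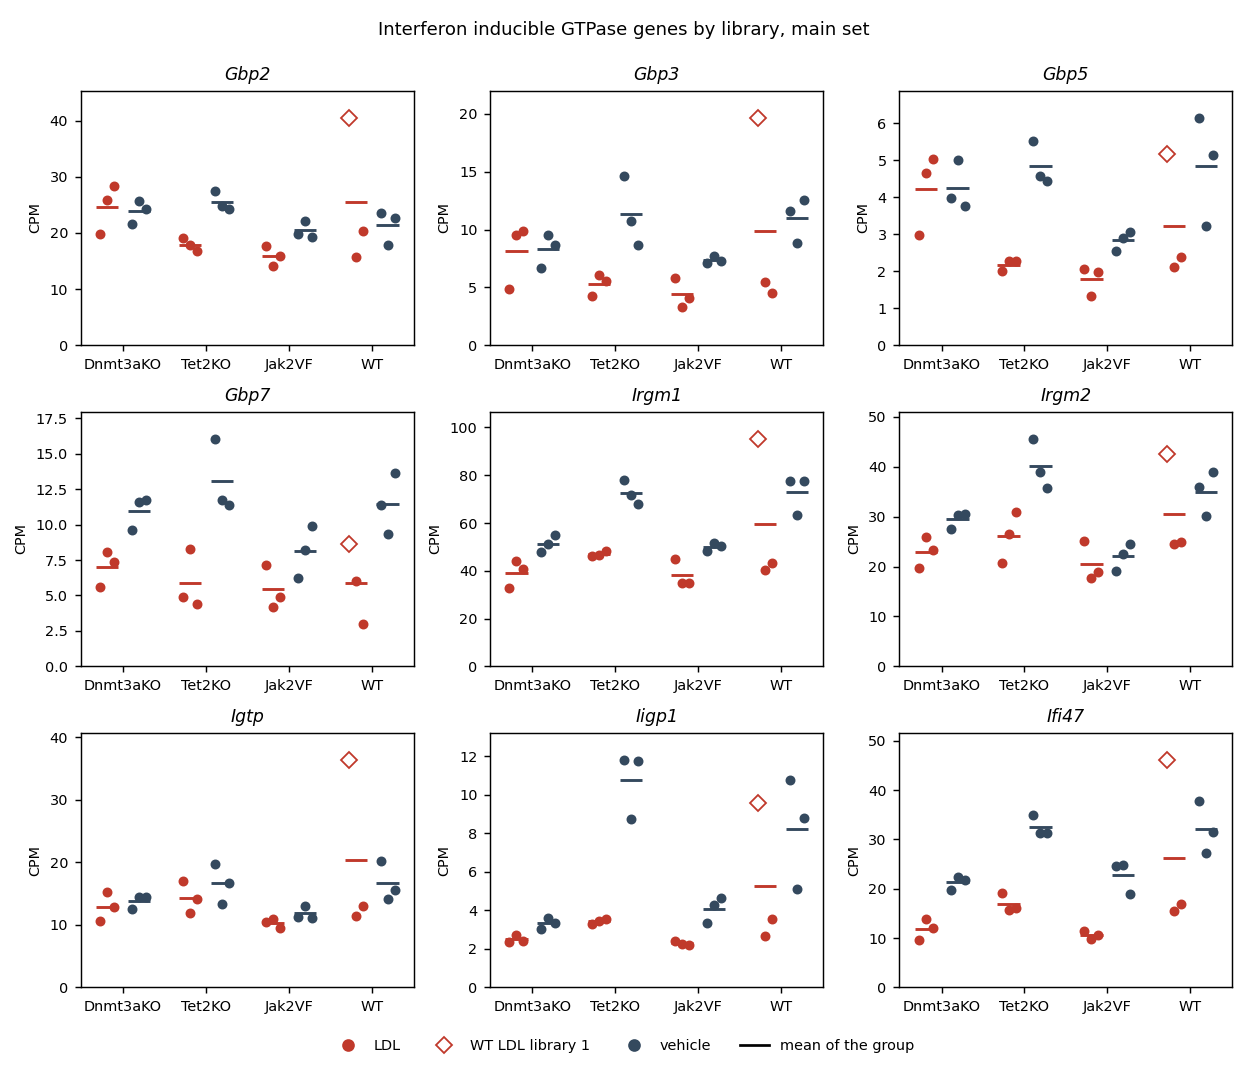
Level (CPM, linear axis from 0) of the 9 GTPase genes in each of the 24 main set libraries, by genotype, with LDL (red) left of vehicle (dark blue) and the group mean as a bar. The open diamond is WT LDL library 1, which is the highest of the 3 WT LDL libraries for all 9 genes.

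With LDL, GTPase genes fell most broadly in Tet2KO macrophages, where 6 of the 9 members were lower than with vehicle at an adjusted p under 0.05 by the edgeR quasi-likelihood test. Of all genes tested, 8.21% were called lower in the same comparison. The effector Iigp1 had the largest fall, Gbp5 and Gbp7 each fell to 0.45 of the vehicle level, and no member rose. The median log2 fold change of the 9 members was -0.94, against -0.0016 over all genes tested. LDL and vehicle libraries did not overlap for 8 members, all but Igtp, where 15.1% of all genes were lower without overlap.

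Iigp1, which codes for an effector that disrupts vacuoles of Toxoplasma and Chlamydia, had 3.27, 3.46 and 3.57 CPM in Tet2KO LDL libraries, against 11.8, 8.73 and 11.7 CPM in Tet2KO vehicle libraries. The groups were far apart, with little spread under LDL. Its log2 fold change was -1.65 (SE 0.322, edgeR adjusted p = 0.000938), a fold of 0.318. Gbp5, which in mouse macrophages is tied to inflammasome activation, had 2.00, 2.26 and 2.28 CPM in Tet2KO LDL libraries, against 5.53, 4.56 and 4.43 CPM in Tet2KO vehicle libraries. All LDL libraries lay below all vehicle libraries, and the log2 fold change was -1.15 (SE 0.288, edgeR adjusted p = 0.00758). Gbp7, tied in mice to the phagosomal oxidase, had 4.86, 8.30 and 4.41 CPM in Tet2KO LDL libraries, against 16, 11.7 and 11.4 CPM in Tet2KO vehicle libraries. LDL library 2 was the highest of its group and still below the vehicle libraries, with a log2 fold change of -1.15 (SE 0.296, edgeR adjusted p = 0.00946).

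Ifi47, another IRG effector, had 19.0, 15.7 and 16 CPM in Tet2KO LDL libraries, against 35, 31.4 and 31.2 CPM in Tet2KO vehicle libraries. The change was even across libraries, with a log2 fold change of -0.94 (SE 0.269, edgeR adjusted p = 0.0186). Among the regulators, Irgm1, whose loss leaves mice open to mycobacteria, had 46.3, 46.6 and 48.2 CPM in Tet2KO LDL libraries, against 78.0, 71.7 and 68.1 CPM in Tet2KO vehicle libraries. Its fall was smaller, at -0.63 on the log2 scale (SE 0.212, edgeR adjusted p = 0.0476). Irgm2 had 20.7, 26.6 and 30.9 CPM in Tet2KO LDL libraries, against 45.6, 39.0 and 35.8 CPM in Tet2KO vehicle libraries, with a log2 fold change of -0.62 (SE 0.191, edgeR adjusted p = 0.0274). Igtp, the third regulator, overlapped between treatments, with 17.0, 11.9 and 14.1 CPM in Tet2KO LDL libraries, against 19.8, 13.4 and 16.8 CPM in Tet2KO vehicle libraries (log2 fold change -0.22, edgeR adjusted p = 0.658). Gbp3 and Gbp2 did not pass the threshold, at -1.11 (edgeR adjusted p = 0.0594) and -0.51 (edgeR adjusted p = 0.126), although their libraries did not overlap. The calls of Iigp1 and Gbp5 held with each Tet2KO library left out in turn. That of Irgm1 was lost whichever Tet2KO library was left out, with edgeR adjusted p from 0.0744 to 0.133. Those of Gbp7, Irgm2 and Ifi47 were lost without some of these libraries. The number of members called was 2 without Tet2KO vehicle library 1 and 3 without Tet2KO LDL library 1 or 3. The share of all genes called in those fits is not given here, so the drop is not shown to be particular to the members.

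Beside these falls, the 12 T and NK cell markers summed to 26.8 to 34.2 CPM in Tet2KO LDL libraries, against 66.0 to 69.3 CPM in Tet2KO vehicle libraries, and 2 of them, Cd4 and Ncr1, passed the test for a fall. The T cell receptor gene Cd3e stayed at or below 1.29 CPM in every main set library. Cd4 made up most of that difference: without it the sums were 14.9 to 21.7 CPM, against 22 to 24.4 CPM. B cell markers summed to 19.8 to 29.4 CPM with LDL, against 32.1 to 38.1 CPM with vehicle, and 4 of 5 fell. Stromal markers summed to 7650 to 9930 CPM in Tet2KO LDL libraries, against 10900 to 13100 CPM in Tet2KO vehicle libraries. Ifng had at most 1 count in any of these 6 libraries. In bulk RNA, fewer cells of a type and less RNA per cell cannot be told apart, and the part of these markers in the GTPase results was not tested.

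In the other genotypes fewer members passed the threshold, and the call rested on Ifi47 or Gbp7. In Dnmt3aKO macrophages, 1 of 9 members was called lower with LDL, against 8.96% of all genes, and 5 were lower without overlap between LDL and vehicle libraries, against 23.0% of all genes. That member was Ifi47, with 9.62, 13.9 and 12.1 CPM in Dnmt3aKO LDL libraries, against 19.8, 22.4 and 21.7 CPM in Dnmt3aKO vehicle libraries (log2 fold change -0.84, SE 0.272, edgeR adjusted p = 0.0402). The call was lost when any of the 6 Dnmt3aKO libraries was left out, with adjusted p from 0.0532 to 0.167. Gbp2, Gbp3 and Gbp5 were at log2 fold changes of 0.05, -0.02 and 0.01 in Dnmt3aKO macrophages, with 95% intervals of -0.41 to 0.51, -0.82 to 0.78 and -0.56 to 0.57. The median over the 9 members was -0.36, against -0.018 over all genes. Neutrophil markers summed to 433 to 479 CPM in Dnmt3aKO LDL libraries, against 612 to 661 CPM in Dnmt3aKO vehicle libraries, with 8 of 10 called lower. T and NK cell markers summed to 17.7 to 18.7 CPM in Dnmt3aKO LDL libraries, against 40.1 to 47.5 CPM in Dnmt3aKO vehicle libraries, with 1 of 12 called lower. Without Cd4 these sums overlapped, at 3.18 to 5.59 CPM with LDL, against 4.53 to 5.84 CPM with vehicle. B cell markers summed to 18.4 to 26.6 CPM, against 31.2 to 36.7 CPM, with 2 of 5 called lower. Stromal markers summed to 7820 to 8590 CPM in Dnmt3aKO LDL libraries, against 10700 to 11200 CPM in Dnmt3aKO vehicle libraries. The part of these markers in the Ifi47 result was not tested.

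In Jak2VF macrophages Ifi47 was again the member called lower with LDL, 1 of 9 against 9.72% of all genes. It had 11.4, 9.83 and 10.7 CPM in Jak2VF LDL libraries, against 24.7, 24.8 and 19.0 CPM in Jak2VF vehicle libraries. The treatments were well separated, at a log2 fold change of -1.10 (SE 0.272, edgeR adjusted p = 0.00695), and the call held with each Jak2VF library left out in turn. Iigp1 had 2.43, 2.24 and 2.20 CPM in Jak2VF LDL libraries, against 3.35, 4.28 and 4.64 CPM in Jak2VF vehicle libraries, which did not overlap, but its log2 fold change of -0.83 did not pass (edgeR adjusted p = 0.0865). In Jak2VF macrophages 7 of 9 members were lower with LDL without overlap, against 16.5% of all genes, and the median of the 9 was -0.58, against -0.023 over all genes. Neutrophil markers fell with LDL too, summing to 309 to 364 CPM in Jak2VF LDL libraries, against 523 to 696 CPM in Jak2VF vehicle libraries, with 9 of 10 called. B cell markers summed to 7.14 to 8.04 CPM in Jak2VF LDL libraries, against 13.3 to 18.2 CPM in Jak2VF vehicle libraries, with 4 of 5 called lower. T and NK cell markers summed to 9.76 to 11.1 CPM, against 21.7 to 24 CPM, with 1 of 12 called lower. Without Cd4 the T and NK sums overlapped, at 6.36 to 7.17 CPM with LDL, against 6.84 to 8.44 CPM with vehicle. Stromal markers summed to 11200 to 11900 CPM in Jak2VF LDL libraries, against 12100 to 16200 CPM in Jak2VF vehicle libraries. The part of these markers in the result was not tested.

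In WT macrophages, 1 of 9 members was called lower with LDL, against 7.58% of all genes, and the picture turned on library 1. Gbp7 had 8.63, 6.01 and 2.98 CPM in WT LDL libraries, against 11.4, 9.30 and 13.6 CPM in WT vehicle libraries, and was also the only member lower without overlap, against 13.1% of all genes. Its log2 fold change was -0.95 (SE 0.295, edgeR adjusted p = 0.0328), and the call was lost without WT vehicle library 1 or 3 or WT LDL library 2 or 3, with adjusted p from 0.0514 to 0.162. Iigp1 had 9.58, 2.65 and 3.54 CPM in WT LDL libraries, against 10.8, 5.09 and 8.81 CPM in WT vehicle libraries. Ifi47 had 46.1, 15.5 and 16.9 CPM in WT LDL libraries, against 37.8, 27.2 and 31.4 CPM in WT vehicle libraries. For both effectors libraries 2 and 3 with LDL lay below every vehicle library and library 1 did not. Irgm1 showed the same split, with 95.2, 40.2 and 43.2 CPM in WT LDL libraries, against 77.7, 63.5 and 77.7 CPM in WT vehicle libraries. T and NK cell markers summed to 19.2 to 26.6 CPM in WT LDL libraries, against 31.2 to 34.3 CPM in WT vehicle libraries. Without Cd4 these sums were 9.34 to 15.5 CPM, against 7.92 to 11.6 CPM, and did not fall. Stromal markers summed to 8510 to 10800 CPM in WT LDL libraries, against 10500 to 11500 CPM in WT vehicle libraries. Of 10 neutrophil markers, 4 were called lower. The part of these markers in the result was not tested.

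Without WT LDL library 1, 6 of the 9 members were called lower with LDL in WT macrophages, against 5.92% of all genes: Iigp1 (log2 fold change -1.41, edgeR adjusted p = 0.000247), Gbp7 (-1.33, 0.00608), Gbp3 (-1.13, 0.00994), Gbp5 (-1.10, 0.00532), Ifi47 (-0.98, 0.000129) and Irgm1 (-0.80, 0.00014). The median over the members was then -0.98 in WT, against -0.94 in Tet2KO macrophages. As that library was the highest for all 9 members, the WT values had to fall without it, so this is a description and not a test. The counts in the mutants rose as well, for a reason that was not tested. Members called lower with LDL were then 2 in Dnmt3aKO (9.03% of all genes), 8 in Tet2KO (8.97%) and 6 in Jak2VF macrophages (11.6%), and Igtp was called in none of the 4 genotypes.

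**Figure D3:**
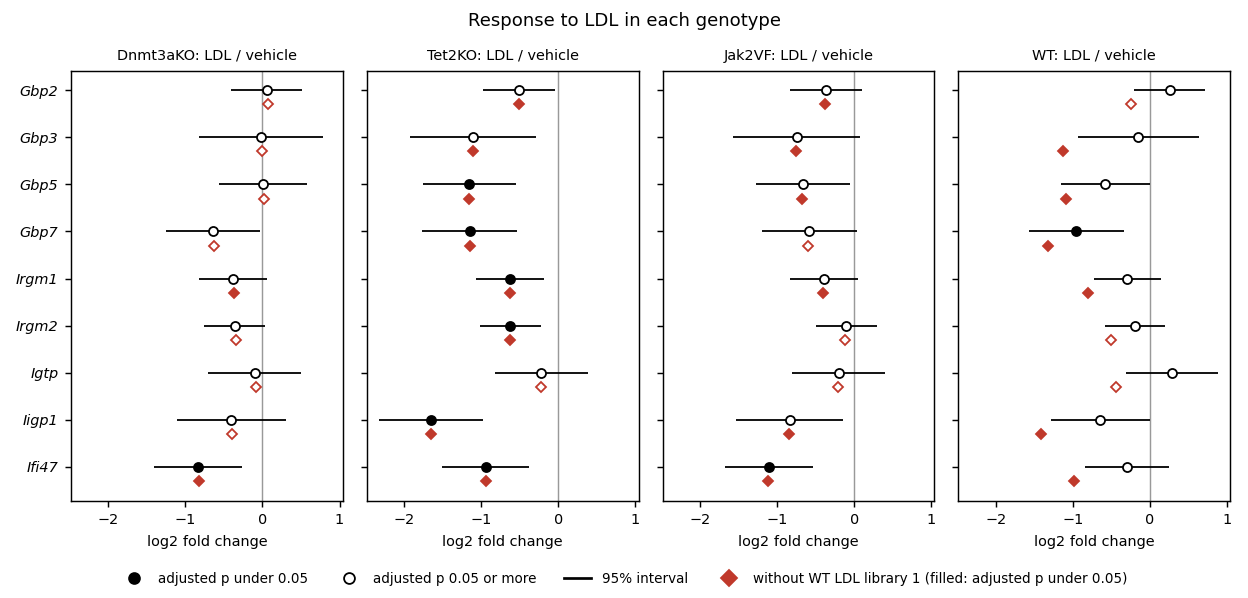
Log2 fold change of LDL over vehicle for each GTPase gene in Dnmt3aKO, Tet2KO, Jak2VF and WT macrophages, with its 95% interval and filled where the adjusted p was under 0.05. The red diamonds give the fit without WT LDL library 1, in which all 9 WT values lie further to the left and 6 of them pass.

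Whether LDL acted differently in a mutant than in WT was tested as an interaction. None of the 9 members was called by edgeR for Dnmt3aKO, Tet2KO or Jak2VF, where 0.432%, 0.103% and 2.47% of all genes were called in either direction. DESeq2 called 0 as well, and the members with an unadjusted p under 0.05 were 0 for Dnmt3aKO, 2 for Tet2KO and 1 for Jak2VF. The LDL response of Iigp1 was lower by 1.01 on the log2 scale in Tet2KO than in WT macrophages, with a 95% interval of -1.94 to -0.08 (edgeR adjusted p = 0.6), so the larger number of calls in Tet2KO macrophages is not shown to be a difference from WT. The response of Ifi47 differed by -0.81 between Jak2VF and WT macrophages (95% interval -1.59 to -0.02, edgeR adjusted p = 0.178). Without WT LDL library 1, again 0 members were called in each of the 3 interactions, and these differences shrank to -0.24 for Iigp1 in Tet2KO and -0.13 for Ifi47 in Jak2VF macrophages. Leaving out the highest WT LDL library had to move them in that direction. The number called without WT LDL library 2 was 2 for Jak2VF, where 18.7% of all genes were called in either direction.

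Against WT macrophages with vehicle, the effector Iigp1 was called lower in Dnmt3aKO and Jak2VF macrophages, and Ifi47 in neither (in both without WT LDL library 1). With LDL both effectors were called lower in these genotypes, but without WT LDL library 1 only Ifi47 in Jak2VF macrophages was. In Tet2KO macrophages 0 members were called with either treatment. The comparisons with one treatment share their WT libraries, so the mutants are given side by side.

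Dnmt3aKO macrophages with vehicle had 1 of 9 members called lower than WT, against 5.51% of all genes, and 3 lower without overlap (Irgm1, Iigp1 and Ifi47), against 16.4% of all genes. Iigp1 had 3.03, 3.6 and 3.35 CPM in Dnmt3aKO vehicle libraries, against 10.8, 5.09 and 8.81 CPM in WT vehicle libraries. Even the lowest WT library lay above every Dnmt3aKO library, and the log2 fold change was -1.31 (SE 0.318, edgeR adjusted p = 0.00802), which became an adjusted p of 0.0522 without WT vehicle library 1. Ifi47 had 19.8, 22.4 and 21.7 CPM in Dnmt3aKO vehicle libraries, against 37.8, 27.2 and 31.4 CPM in WT vehicle libraries (log2 fold change -0.60, edgeR adjusted p = 0.187). Irgm1 had 47.7, 51.3 and 54.9 CPM in Dnmt3aKO vehicle libraries, against 77.7, 63.5 and 77.7 CPM in WT vehicle libraries (log2 fold change -0.51, edgeR adjusted p = 0.149). WT LDL library 1 is not among the groups compared but enters the shared estimate of spread. Without it, these 3 members were called (edgeR adjusted p = 0.000103 for Iigp1, 0.00402 for Ifi47 and 0.00319 for Irgm1), against 6.09% of all genes. The other members were not called in the fit with all libraries: Gbp2 was at 0.16 (95% interval -0.30 to 0.61), Gbp7 at -0.06 (-0.65 to 0.54), Gbp5 at -0.19 (-0.75 to 0.37), Gbp3 at -0.41 (-1.2 to 0.38), Irgm2 at -0.25 (-0.64 to 0.14) and Igtp at -0.27 (-0.86 to 0.33).

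With LDL, 2 of 9 members were called lower in Dnmt3aKO than in WT macrophages, against 9.46% of all genes, and 1 was lower without overlap, against 17.8% of all genes. Ifi47 had 9.62, 13.9 and 12.1 CPM in Dnmt3aKO LDL libraries, against 46.1, 15.5 and 16.9 CPM in WT LDL libraries, at a log2 fold change of -1.14 (SE 0.273, edgeR adjusted p = 0.00667). Iigp1 had 2.34, 2.74 and 2.43 CPM in Dnmt3aKO LDL libraries, against 9.58, 2.65 and 3.54 CPM in WT LDL libraries, at -1.07 (SE 0.336, edgeR adjusted p = 0.0333). Both calls rested on WT LDL library 1. The number called was 4 without WT LDL library 2 (29.1% of all genes in either direction, against 17.5% with all libraries) and 1 when each Dnmt3aKO LDL library was left out in turn (9.47% to 11.8%). Without WT LDL library 1, Ifi47 was at -0.43 (edgeR adjusted p = 0.0818) and Iigp1 at -0.29 (edgeR adjusted p = 0.509), and the 1 member called was Gbp5, higher in Dnmt3aKO macrophages at 0.93 (edgeR adjusted p = 0.022), against 10.1% of all genes called in either direction. Gbp5 had 2.97, 4.66 and 5.03 CPM in Dnmt3aKO LDL libraries, against 5.18, 2.12 and 2.39 CPM in WT LDL libraries.

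Jak2VF macrophages with vehicle had 2 of 9 members called lower than WT, against 5.26% of all genes, and 7 lower without overlap, all but Gbp2 and Gbp7, against 13.7% of all genes. Irgm2 had 19.1, 22.6 and 24.5 CPM in Jak2VF vehicle libraries, against 36.0, 30.1 and 38.9 CPM in WT vehicle libraries (log2 fold change -0.67, SE 0.190, edgeR adjusted p = 0.0296). Iigp1 had 3.35, 4.28 and 4.64 CPM in Jak2VF vehicle libraries, against 10.8, 5.09 and 8.81 CPM in WT vehicle libraries (log2 fold change -1.01, SE 0.314, edgeR adjusted p = 0.0454). All Jak2VF libraries were below all WT libraries for both genes. The count was 0 without WT vehicle library 1 or 3 or Jak2VF vehicle library 1 or 2, and 1 without Jak2VF vehicle library 3. The share of all genes called in those fits is not given here, so the drop is not shown to be particular to the members. The count was 5 without WT LDL library 1 (Gbp5, Irgm1, Irgm2, Iigp1 and Ifi47), against 5.62% of all genes. The median over the 9 members was -0.55, against 0.0035 over all genes.

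With LDL, 3 of 9 members were called lower in Jak2VF than in WT macrophages, against 5.75% of all genes, and 4 were lower without overlap, against 13.5% of all genes. Ifi47 had 11.4, 9.83 and 10.7 CPM in Jak2VF LDL libraries, against 46.1, 15.5 and 16.9 CPM in WT LDL libraries (log2 fold change -1.30, SE 0.273, edgeR adjusted p = 0.00499). Iigp1 was at -1.20 (SE 0.333, edgeR adjusted p = 0.0272). Igtp, with 10.5, 10.9 and 9.43 CPM in Jak2VF LDL libraries and 36.4, 11.5 and 13.0 CPM in WT LDL libraries, was at -0.98 (SE 0.291, edgeR adjusted p = 0.0374). Without WT LDL library 1 only Ifi47 was called, at -0.61 (edgeR adjusted p = 0.0268), against 2.22% of all genes called lower, and Iigp1 and Igtp were at -0.43 and -0.26 (edgeR adjusted p = 0.361 and 0.482). The number called was 8 without WT LDL library 2 (23.1% of all genes in either direction, against 9.97% with all libraries), 7 without WT LDL library 3 (5.85%) and 1 when each Jak2VF LDL library was left out in turn (3.26% to 10.6%).

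Neutrophil markers were higher in both of these genotypes. They summed to 612 to 661 CPM in Dnmt3aKO and 523 to 696 CPM in Jak2VF vehicle libraries, against 167 to 230 CPM in WT vehicle libraries, with 9 of 10 called higher in each. With LDL they summed to 433 to 479 CPM in Dnmt3aKO and 309 to 364 CPM in Jak2VF libraries, against 130 to 222 CPM in WT libraries. The 20 type I interferon-stimulated genes summed to 390 to 430 CPM in Dnmt3aKO and 306 to 373 CPM in Jak2VF vehicle libraries, against 524 to 756 CPM in WT vehicle libraries. The part of the markers in the GTPase results was not tested.

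In Tet2KO against WT macrophages, edgeR called 0 of 9 members with vehicle, against 5.47% of all genes in either direction, and 0 of 9 with LDL, against 2.76%. DESeq2 called 0 in both, and 0 and 3 members had an unadjusted p under 0.05. With vehicle the members were at log2 fold changes from -0.01 for Irgm1 to 0.39 for Iigp1. Gbp5, Irgm1, Igtp and Ifi47 were nearest to the WT level, at 0.00, -0.01, 0.00 and 0.02, with 95% intervals no wider than -0.59 to 0.60. Gbp2 was at 0.25 (95% interval -0.21 to 0.71). It was the only member higher in Tet2KO libraries without overlap, as were 2386 of the 19444 genes tested. Iigp1 had 11.8, 8.73 and 11.7 CPM in Tet2KO vehicle libraries, against 10.8, 5.09 and 8.81 CPM in WT vehicle libraries, which overlapped (log2 fold change 0.39, 95% interval -0.24 to 1.02). T and NK cell markers were higher in these Tet2KO libraries, 9 of 12 called, at sums of 66.0 to 69.3 CPM, against 31.2 to 34.3 CPM in WT vehicle libraries. B cell markers summed to 32.1 to 38.1 CPM, against 15.6 to 24.3 CPM. Neutrophil markers were lower, at 38.1 to 47.8 CPM in Tet2KO and 167 to 230 CPM in WT vehicle libraries. With LDL they summed to 41.2 to 62.3 CPM in Tet2KO and 130 to 222 CPM in WT libraries. The part of these markers in the GTPase results was not tested. With LDL the median over the 9 members was -0.52, and 0.08 without WT LDL library 1, and 2 members were called without WT LDL library 2, against 4.33% of all genes in either direction. With the title's replicate number as a block, which paired the libraries of this comparison, 0 members were called as well. With the block and only these groups in the fit, 0 members were called where 20.7% of all genes were, against 0.226% of all genes without the block.

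**Figure D4:**
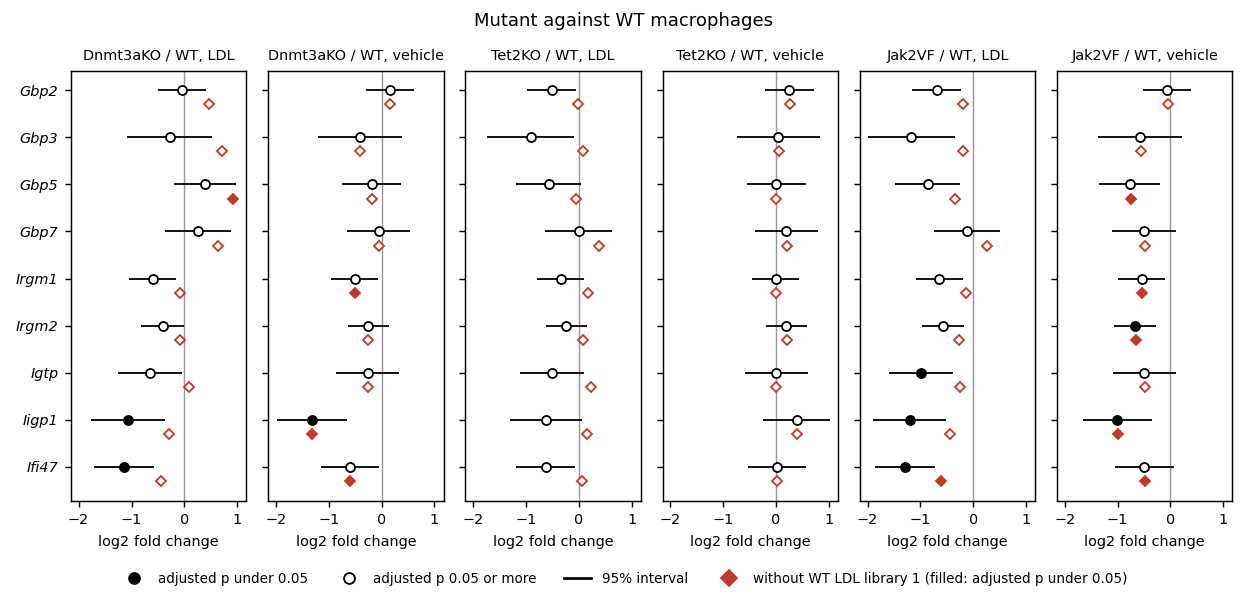
Log2 fold change of each mutant over WT macrophages for the 9 GTPase genes, with LDL and with vehicle, with its 95% interval and filled where the adjusted p was under 0.05. The red diamonds give the fit without WT LDL library 1, which moves the values of the LDL panels to the right and leaves those of the vehicle panels in place.

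Further genes of both families fell with LDL. Of 5 further GBP genes tested, 4 fell in Tet2KO macrophages with LDL, at log2 fold changes of -1.66 for Gbp8, -1.5 for Gbp10, -1.11 for Gbp9 and -1.08 for Gbp4. Gbp8 was the 1 of 5 that fell in Dnmt3aKO (-1.48) and in Jak2VF macrophages (-1.43), and 0 of 5 were called in WT macrophages. The numbers without WT LDL library 1 were 5 in Tet2KO, 1 in Dnmt3aKO, 2 in Jak2VF and 3 in WT macrophages. Of 9 further IRG genes tested, 6 fell with LDL in Tet2KO, 1 in Dnmt3aKO, 3 in Jak2VF and 2 in WT macrophages, and without WT LDL library 1, where 8 were tested, these numbers were 6, 2, 4 and 4. They included Tgtp1 (-1.75) and Tgtp2 (-1.76) in Tet2KO macrophages, effector IRGs that are near copies of each other, so that their reads may have been split, and Gm4951 (-1.99 in Tet2KO and -1.47 in WT). Gm4951 was the gene of this group furthest below WT in Dnmt3aKO macrophages with vehicle, at -2.96 (edgeR adjusted p = 0.000178), where 4 of the 9 were called lower. Gbp4 and Gbp10 were higher in Tet2KO than in WT macrophages with vehicle, at 1.45 and 1.28 (edgeR adjusted p = 0.00984 and 0.0135), while 0 of the 4 GBP members were called.

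Few genes of the interferon gamma pathway itself passed the test with LDL. Of its 9 receptor and signalling genes tested, 2 rose in WT macrophages, the receptor chains Ifngr1 (0.30) and Ifngr2 (0.35), of which Ifngr2 also rose in Tet2KO macrophages (0.38). Irf1, the transcription factor that binds ISRE and IRF motifs after interferon gamma, fell in Dnmt3aKO (-0.43), Tet2KO (-0.40) and Jak2VF macrophages (-0.40). Ifng itself had at most 2 counts in any main set library, and Ifnb1, the interferon beta gene, at most 3. In Jak2VF against WT macrophages with LDL, 5 of the 9 were called lower, among them Irf8 (-0.78) and Irf1 (-0.68), and 3 without WT LDL library 1. Among 13 other interferon gamma targets the directions were mixed: Cd274 and Socs3 rose with LDL in all 4 genotypes, by 0.88 to 1.54 and 0.55 to 1.06 on the log2 scale, while the class II regulator Ciita fell in Tet2KO (-1.76) and Dnmt3aKO macrophages (-0.83) and Psmb9 fell in Dnmt3aKO (-0.54) and Jak2VF macrophages (-0.63).

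Type I interferon-stimulated genes were called lower with LDL in 4 of 20 cases in Tet2KO macrophages (Ifit2 -1.07, Mx1 -1.84, Rsad2 -1.17, Ifit3 -1.66), 1 in WT (Ifit2 -1.03) and 0 in Dnmt3aKO and Jak2VF macrophages. Without WT LDL library 1 these counts were 8, 11, 0 and 2 in Tet2KO, WT, Dnmt3aKO and Jak2VF macrophages. Against WT macrophages with vehicle, 5 of the 20 were called lower in Dnmt3aKO, led by Oasl1 (-1.81), and 10 in Jak2VF macrophages, led by Cmpk2 (-2.54). With LDL the numbers were 2 and 11. With WT LDL library 1 left out they were 13 in Dnmt3aKO and 16 in Jak2VF macrophages with vehicle, and 0 in both with LDL. Among inflammasome genes, measured here as RNA and not as cleaved protein, Il1b rose with LDL in every genotype. Its log2 fold changes were 2.52 in Dnmt3aKO, 2.79 in Tet2KO, 1.46 in Jak2VF and 2.85 in WT macrophages. Gsdmd, the pore former that inflammasomes cleave, rose by 0.60, 0.71, 0.43 and 0.70 in the same order. The adaptor Pycard fell in all 4. Of 12 autophagy genes whose products load GTPases on vacuoles, Sqstm1 rose with LDL in WT (0.51), Dnmt3aKO (0.38) and Tet2KO macrophages (0.40) and Gabarapl2 in WT (0.34) and Tet2KO macrophages (0.45), and none fell.

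Across the 24 main set libraries the members rose and fell together. The 36 pairs of members had Pearson correlations of log2 CPM between 0.393 and 0.95, with a median of 0.749, and after the group means were removed between 0.454 and 0.944, with a median of 0.834. These points share their libraries, and WT LDL library 1 is among them, so the values are a description. The 10 genes whose pattern was most like the mean pattern of the members, out of 19413 ranked, were Parp9 (r = 0.944), Stat2 (0.94), Ifi206 (0.934), the IRG gene Gm12250 (0.927), Ifit3b (0.919), Ifi213 (0.919), Gbp6 (0.913), Sp100 (0.906), Uba7 (0.906) and Ifit3 (0.904), over 24 libraries.

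In batch 1, where only Tet2KO and WT macrophages were sequenced, all 9 members were higher on average in Tet2KO than in WT macrophages under both treatments, and none passed the test. With LDL, edgeR called 0 of 9, against 0.536% of all genes in either direction, with vehicle 0 of 9, against 1.89%, and for LDL against vehicle over both genotypes 0 of 9, against 0.271%. DESeq2 called 0 in each, and the members with an unadjusted p under 0.05 were 4, 1 and 0 in the same order.

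Iigp1 had 2.85 and 0.658 CPM in Tet2KO LDL libraries, against 0.414 and 0.202 CPM in WT LDL libraries. The groups did not overlap but the Tet2KO libraries were far from each other (log2 fold change 2.65, 95% interval 0.63 to 4.67, edgeR adjusted p = 0.306). With vehicle it had 2.11, 4.38 and 1.33 CPM in Tet2KO libraries, against 1.22, 0.899 and 0.428 CPM in WT libraries (log2 fold change 1.63, 95% interval 0.16 to 3.09, edgeR adjusted p = 0.307). Gbp2 had 23.2 and 8.92 CPM in Tet2KO LDL libraries, against 5.59 and 6.32 CPM in WT LDL libraries (log2 fold change 1.42, edgeR adjusted p = 0.298). With LDL, 5 members (Gbp2, Gbp5, Gbp7, Iigp1 and Ifi47) were higher in Tet2KO libraries without overlap, as were 18.3% of all genes. Ifi47 had 54.1 and 23.1 CPM in Tet2KO LDL libraries, against 20.6 and 16.9 CPM in WT LDL libraries.

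The spread among Tet2KO libraries went with that of other interferon genes. All 9 members were highest in Tet2KO LDL library 1 and Tet2KO vehicle library 2 of their groups, and these libraries held Irf7 at 300 and 266 CPM and type I interferon-stimulated genes at a sum of 2100 and 2190 CPM. Within the same groups the lowest sums of the members were in LDL library 2 and vehicle library 3, which held stromal markers at 3100 and 3350 CPM, against 408 to 727 CPM in the other batch 1 libraries. Without Tet2KO LDL library 1, the LDL difference of Iigp1 was 1.24 (edgeR adjusted p = 0.64) and that of Gbp2 0.58 (edgeR adjusted p = 0.643), and Irgm2 and Igtp were at -0.10 and -0.08. Without Tet2KO vehicle library 2, the vehicle difference of Iigp1 was 1.03 (edgeR adjusted p = 0.496), and Irgm2 and Igtp were at -0.03 and -0.25. LDL against vehicle over both genotypes gave negative values for all 9 members, from -0.04 for Igtp to -1.07 for Iigp1 (95% interval -2.33 to 0.18, edgeR adjusted p = 0.571). In WT libraries the mean of every member was lower with LDL. In Tet2KO libraries the means with LDL and vehicle were 16.1 and 15.1 CPM for Gbp2, 5.92 and 5.54 for Gbp7, and 24.6 and 20.7 for Igtp. They were 38.6 and 37.9 CPM for Ifi47, 90.3 and 90.3 for Irgm1, and 42.4 and 42.5 for Irgm2. Gbp3, Gbp5 and Iigp1 were lower with LDL there, at 12.7, 3.28 and 1.75 CPM, against 13.3, 4.3 and 2.6 CPM. LDL was not tested within each genotype of batch 1.

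**Figure D5:**
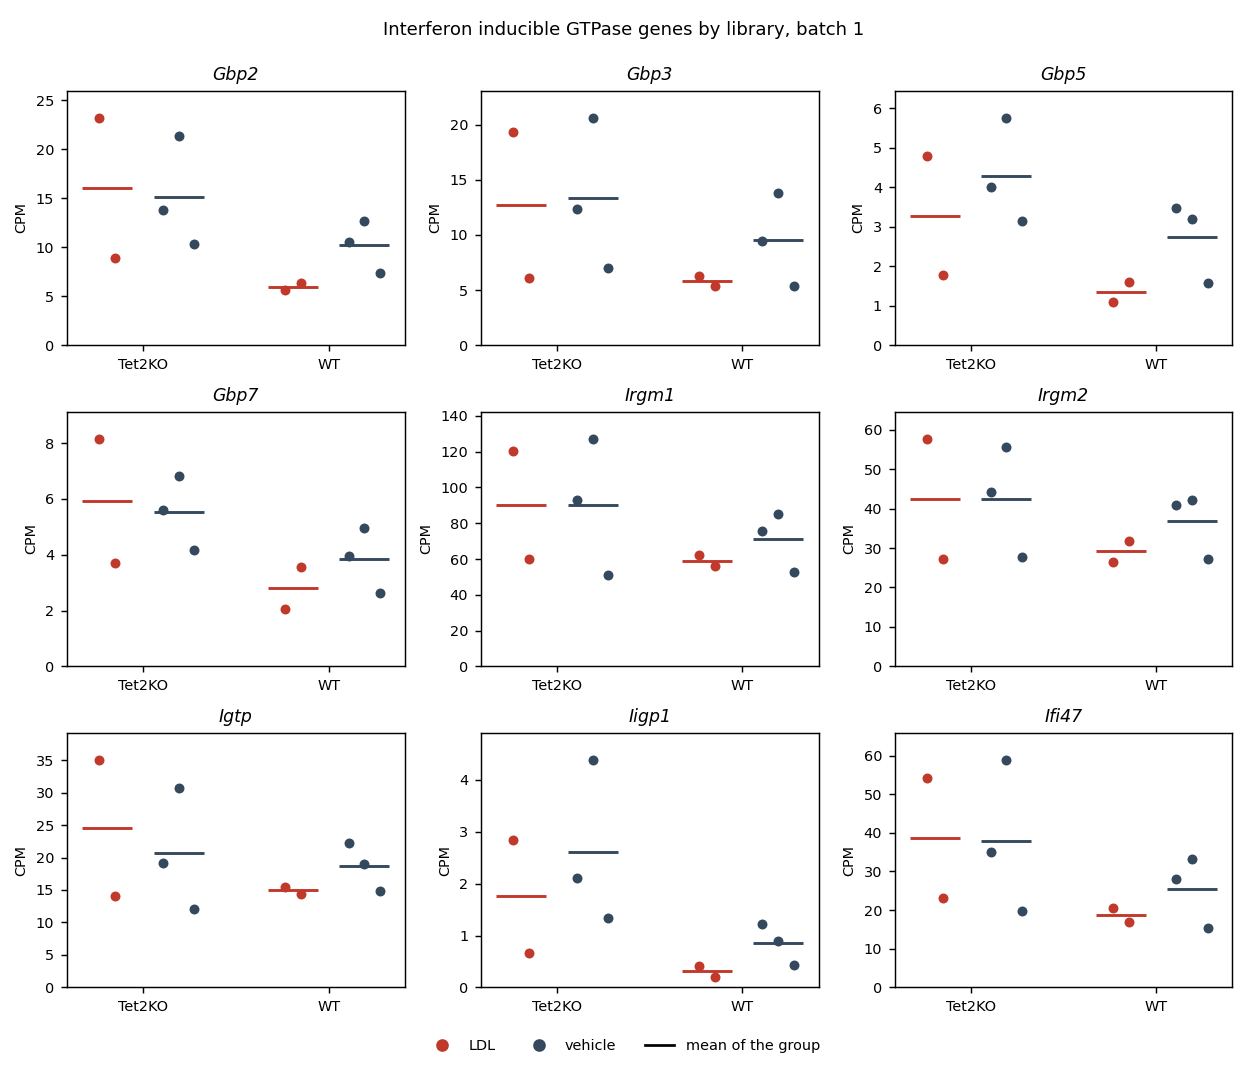
Level (CPM, linear axis from 0) of the 9 GTPase genes in each of the 10 batch 1 libraries, with Tet2KO left of WT, LDL (red) left of vehicle (dark blue) and the group mean as a bar. For each gene the upper Tet2KO points are LDL library 1 and vehicle library 2, and the WT libraries span a narrower range.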

How the data were processed

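RNA was sequenced from 34 libraries of mouse bone marrow-derived macrophages. The counts as deposited are named normalized, but each value is a whole number for a gene in a library. The highest library total was 1.82 times the lowest in the main set and 2.93 times in batch 1. The values were therefore tested as read counts, and whether they had been scaled before is not stated in the sources used here. The submitters' processing notes name mm10 as the genome; no aligner, counter, gene annotation or strand setting is given in the sources used here. Both ribosomal depletion and poly-A selection are named, per the labels' protocols.

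The edgeR 4.0.16 quasi-likelihood test (R 4.3.3, limma 3.58.1) was run on genes that reached 10 counts in 3 or more libraries, or 2 or more in batch 1. TMM factors scaled the libraries, each group had its own mean, and all groups of a set shared the spread (16 residual degrees of freedom in the main set). The sets were fitted apart. Tests were two-sided, p-values were adjusted by Benjamini-Hochberg over all genes tested, and calls were made at an adjusted p under 0.05. Intervals are 95% intervals. CPM are counts relative to TMM-scaled totals. Correlations used log2(CPM + 1). The common biological coefficient of variation was 0.137 in the main set and 0.199 in batch 1, so small changes of low genes could be missed. The scripts were tested on simulated counts. Levels per length used GENCODE M21 exons.

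The members and lists were chosen with earlier results of these data known. The text names all members, at most 4 called genes of each list per comparison, by smallest adjusted p, and the 10 genes of most like pattern. Alternatives were DESeq2 1.42.0, RLE scaling, no filter, a replicate block, only the groups compared, and each library left out. Leaving out WT LDL library 1 where WT LDL is not compared, and a block with only the compared groups, were added after seeing the data. Libraries with the same title number deviated together at every number only in Tet2KO against WT with LDL (r = 0.777, 0.78 and 0.57). In Jak2VF against WT with vehicle the values were 0.678, 0.00697 and 0.702. The labels do not say what a number shares.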

Additional observations from a re-analysis of the deposited data

How the results depend on the processing

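Of 2007 values of single members under alternatives, 1868 kept their side of the threshold, 80 passed it only under the alternative and 59 no longer passed it. No called value changed sign. Of values called in neither fit, 113 changed sign.

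Members called, out of 9, depended on several choices. With no count filter they were 2 for LDL in WT (1 in the main analysis), 2 in Dnmt3aKO (1), 4 in Jak2VF (1), 3 for Dnmt3aKO against WT with vehicle (1) and 4 with LDL (2), 2 for Tet2KO against WT with LDL (0), 4 for Jak2VF against WT with vehicle (2) and 8 with LDL (3), and 1 for the interaction of Jak2VF with LDL (0). The share of all genes called in these fits was 1.25% to 8.22%. With only the groups compared in the fit they were 0 for LDL in WT (7.4% of all genes, against 14.2% in the main analysis), 5 in Dnmt3aKO (31.6%, against 15.4%) and 3 in Jak2VF (13.7%, against 18.2%), 3 for Dnmt3aKO against WT with vehicle (15.1%, against 11.1%) and 0 with LDL (7.41%, against 17.5%), and 0 for Jak2VF against WT with LDL (1.57%, against 9.97%). DESeq2 called 2 for LDL in Jak2VF (21.1% of all genes) and 8 for Jak2VF against WT with LDL (14.2%). Without the 2 libraries named above for Gfap, 0 were called for LDL in WT (11.6%) and 6 for Jak2VF against WT with LDL (6.18%). The cause was not tested.

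With the description's replicate number as a block, 0 members were called for LDL in WT, where Gbp7 was at an edgeR adjusted p of 0.0724. In Tet2KO macrophages Gbp7 and Irgm1 no longer passed with this block (edgeR adjusted p = 0.0736 and 0.0895). The share of all genes called with this block is not given here, so these losses are not shown to be particular to the members. With the title number as a block, 0 members were called in Tet2KO against WT with LDL, and no count of members moved by over 1.5 times. With only those groups in the fit it was 0 as well, but 3578 of 17270 genes (20.7%) were called with the block, against 39 (0.226%) without it.

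Leaving out each library in turn gave 0 to 6 members called for LDL in WT, 0 to 2 in Dnmt3aKO, 2 to 8 in Tet2KO and 1 to 6 in Jak2VF, 0 to 3 for Dnmt3aKO against WT with vehicle and 1 to 4 with LDL, 0 to 2 for Tet2KO against WT with LDL, 0 to 5 for Jak2VF against WT with vehicle and 1 to 8 with LDL, and 0 to 2 for the interaction of Jak2VF with LDL. Tet2KO against WT with vehicle, the other interactions and batch 1 stayed at 0 throughout. Where 1 library is left in a batch 1 group, it was assumed to vary like the other groups. Where given above, the share of all genes called also moved between fits. The ranges of members called are thus not shown to be particular to the members.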
